A study of Mus musculus with 8 samples.

Results

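In inguinal white adipose tissue, the fat pad under the skin of the groin, 7 genes better known from neurons than from adipocytes had higher transcript levels in mice with Lsd1 deleted in adipocytes than in controls. They are Vat1l, Cend1, Arhgap36, Uts2r, Necab1, Uchl1 and Inpp5j, and they were picked from 23360 genes with a row because every knockout library lay above every control library. That separation therefore describes how they were chosen and is not tested here. The groups were 4 control libraries from mice with floxed Lsd1 alleles and 4 knockout libraries from floxed mice that also carried Adipoq-Cre, all at 6 weeks of age. Adipoq-Cre acts in adipocytes, so that other cells of the pad kept the gene, and no group carried Cre without the deletion. An effect of the transgene and loss of Lsd1 cannot be told apart. Nothing in the labels states that each library is a different mouse, so a p-value here reflects the spread among libraries, and that spread may be technical. In bulk tissue, fewer cells of a type and less RNA per cell cannot be told apart.

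Lsd1, the product of Kdm1a, removes methyl groups from histone H3 and acts in complexes with CoREST. With the DNA-binding factor REST, those complexes keep neuronal genes silent in cells that are not neurons. The 7 genes cover several roles. Vat1l belongs to the quinone oxidoreductase family, and Cend1 is a membrane protein that favours cell cycle exit and neuronal differentiation. Arhgap36 inhibits the catalytic subunits of protein kinase A and activates Hedgehog signalling. Uts2r is the G protein-coupled receptor of the peptide urotensin II, and Necab1 binds calcium through EF hands. Uchl1 is a deubiquitinating enzyme that is abundant in neurons, and Inpp5j removes the 5-phosphate from phosphoinositides.

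The genes lie on 6 chromosomes, so they are not a cluster. In GRCm38.p6, Vat1l spans chromosome 8 from 114205281 to 114374074 and Cend1 chromosome 7 from 141426446 to 141429562. Arhgap36 lies on chromosome X from 49448360 to 49500244, Necab1 on chromosome 4 from 14952245 to 15149804 and Uchl1 on chromosome 5 from 66676121 to 66687234. Chromosome 11 holds both Inpp5j, from 3494272 to 3505501, and Uts2r, from 121160271 to 121161973. The deposited values count reads on RefSeq transcripts, which have 13 exons for Arhgap36, Necab1 and Inpp5j, 9 for Vat1l and Uchl1, 2 for Cend1 and 1 for Uts2r.

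The 250 bases before the transcript start are shown for the 4 members with the largest ratio of knockout to control mean, to show how unlike their promoters are. The sequences are from RefSeq (GRCm38.p6), 5′ to 3′ on the strand of the gene, with every CpG in capitals. They come from chr8:114205390-114205639 (+), chr7:141429563-141429812 (-), chrX:49470200-49470449 (+) and chr11:121160021-121160270 (+).
Vat1l: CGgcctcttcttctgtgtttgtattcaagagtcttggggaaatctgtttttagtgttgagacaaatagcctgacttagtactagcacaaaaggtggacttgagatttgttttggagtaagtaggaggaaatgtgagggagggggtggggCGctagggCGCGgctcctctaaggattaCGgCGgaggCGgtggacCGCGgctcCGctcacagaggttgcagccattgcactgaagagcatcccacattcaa
Cend1: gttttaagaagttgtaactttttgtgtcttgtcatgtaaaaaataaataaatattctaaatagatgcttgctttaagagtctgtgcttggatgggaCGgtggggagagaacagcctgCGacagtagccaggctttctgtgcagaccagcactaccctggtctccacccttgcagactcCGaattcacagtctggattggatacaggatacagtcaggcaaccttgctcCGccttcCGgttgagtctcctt
Arhgap36: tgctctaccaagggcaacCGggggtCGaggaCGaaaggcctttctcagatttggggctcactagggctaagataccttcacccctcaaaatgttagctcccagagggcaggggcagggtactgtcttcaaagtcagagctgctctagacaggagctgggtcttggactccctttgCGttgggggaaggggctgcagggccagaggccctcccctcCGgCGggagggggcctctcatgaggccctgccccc
Uts2r: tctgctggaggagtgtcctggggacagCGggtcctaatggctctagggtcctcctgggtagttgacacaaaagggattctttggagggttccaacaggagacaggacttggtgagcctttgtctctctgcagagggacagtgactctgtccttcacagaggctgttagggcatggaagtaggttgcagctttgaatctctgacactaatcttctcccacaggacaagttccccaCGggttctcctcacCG
The Vat1l window held 10 CpGs, more than 62.2% of the 32851 windows in the RefSeq table. All but the first of them stood between positions -101 and -48. Cend1 held 5, Arhgap36 held 6 at the start of the counted transcript and 3 at its other listed start, and Uts2r held 3, where the median window has 6. Uchl1 held 7, and 5 of the 7 members had a window in the table, those of Necab1 and Inpp5j being not analysed here. For Vat1l, Cend1 and Uchl1 the RefSeq start used for the window differs from the start of the counted transcript in GENCODE M21. For Cend1 these starts are 141429562 and 141429425. Positions are given from the RefSeq start.

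Letters of the RE1 element, the site that REST reads, were searched on both strands as CAGCACC for its left arm and GGACAG for its right arm. The left arm was in none of the 6 windows and in 5.73% of all windows. The right arm was in the Uts2r window alone, at positions -229, -116 and -105, and in 18.7% of all windows. TATAAA (12.4% of all windows) and GGGCGG (32.7%) were in none of the 6. CCAAT (33.8% of all windows) was at position -56 of Cend1 and -74 of the other Arhgap36 start, where CANNTG (66.2% of all windows) stood at -198 and -60. No motif searched was therefore shared by more than those 2 genes. A match is only a match of letters in this window.

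**Figure D1:**
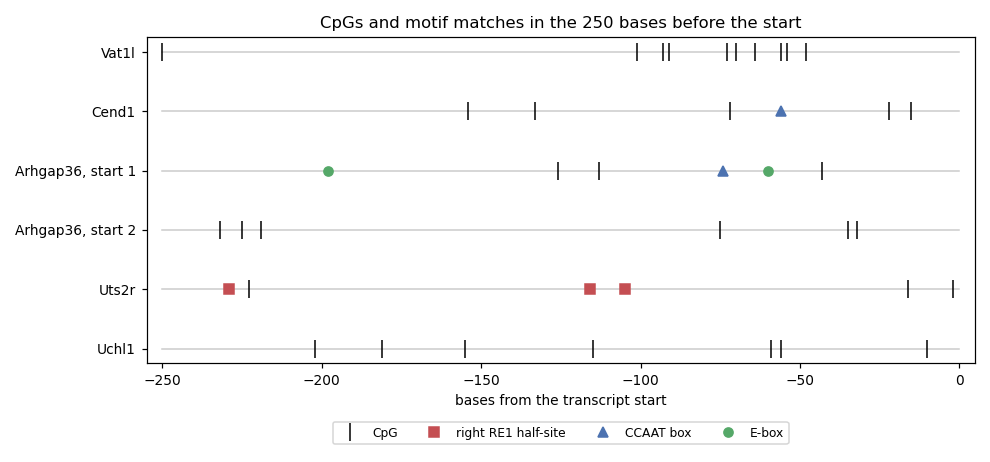
CpGs and motif matches in the 250 bases before the start of 5 of the genes, with the distance from the transcript start in bases on the x axis and 1 line per RefSeq start (Arhgap36 has a pair, of which start 2 is that of the counted transcript). Ticks mark CpGs, squares GGACAG, triangles CCAAT and circles CANNTG, and squares are on the Uts2r line only.

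The libraries were checked first. They held 25671837 to 32442724 reads recovered from the scaled values, and the tissue carried its label: Adipoq, the adipocyte hormone adiponectin, was at 25163 to 39979 scaled reads in all 8. Kdm1a was at 699, 685, 799 and 735 scaled reads in the controls and at 566, 578, 547 and 581 in the knockouts. The groups did not overlap, and the transcript fell by 22.1% in the whole pad (limma adjusted p = 0.0498, log2 fold change -0.36 with an SE of 0.08). The deleted exons are not named in the labels, and the call was lost in 14 of 22 alternatives, with adjusted p up to 0.216. Skeletal muscle markers, 13 with a row, summed to 9011 to 40034 scaled reads in the controls and 13529 in knockout replicate 3, but to 208627, 200069 and 119931 in knockout replicates 1, 2 and 4. The epithelial keratin genes Krt5 and Krt14 together were at 375 and 122 in knockout replicates 1 and 2 and at 0 to 0.98 in the other 6 libraries. Y-linked Ddx3y was at 1122 to 1533 and Xist at 0 to 3.43, so all 8 libraries had the same pattern of sex-linked transcripts. Adipocyte markers were lower in sum in the knockouts, at 306365 to 338260 scaled reads against 366298 to 477540. Of the 10 adipocyte genes 1 was lower and none higher, where 0.356% of all tested genes were lower, and 4 had every knockout below every control, where 3.58% of all tested genes did. The gene that passed was Cidec, a protein of lipid droplets, which fell from 29815 ± 1363 to 14834 ± 1632 (log2 fold change -1.01, limma adjusted p = 0.00179). The part of these marker differences in the values of the 7 genes was not tested.

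Vat1l had the highest mean level per length of the 7. By replicate, the controls had 258, 303, 233 and 249.6 scaled reads, while the knockouts had 1628, 1476, 1144 and 1312. The lowest knockout was 3.78 times the highest control, and the means were 261 ± 29.9 and 1389.9 ± 209 (SD, n = 4 each), a ratio of 5.33. Per length, the level went from 4.99 ± 0.562 to 26.8 ± 4.27 RPKM (recovered reads per kilobase of transcript, scaled to the library total). This moved the transcript from the 58.7th to the 86.3th percentile of 22294 genes with a length. Its relatives in the quinone oxidoreductase family did not pass the test, where 1.64% of all tested genes did, so this is no result about them. Vat1, the protein it is named after, was at 2060 ± 191 in controls and 2117 ± 380 in knockouts (log2 fold change 0.03, limma adjusted p = 0.947). Cryz, at -0.34, and Cryzl1, at 0.23, had adjusted p of 0.217 and 0.252.

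Cend1 was close to 0 in controls. Its scaled reads were 8.3, 0, 2.94 and 9.8 in the controls, from 17, 0, 6 and 19 recovered reads, and 44.7, 125, 191 and 67.9 in the knockouts. The means were 5.26 ± 4.58 and 107 ± 65.1, a ratio of 20.3, and the knockouts differed among themselves by a coefficient of variation of 60.9%. Knockout replicate 3, the library with muscle markers in the control range, had the highest value, and replicate 1 the lowest. Ranbp9 and Dyrk1b, binding partners of Cend1, and Ccnd1, a cyclin of the G1 phase, had log2 fold changes of 0.02, -0.17 and 0.13. None of these 3 passed (limma adjusted p 0.454 to 0.915), where 1.64% of all tested genes did, so this is no result about them.

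Arhgap36 was the least abundant member in controls on the scale of RPKM (0.0543 ± 0.0466). Its scaled reads were 0.49, 4.91, 2.94 and 1.03 in the controls, from 1 to 10 recovered reads, and 98.7, 22.9, 32.7 and 23.5 in the knockouts. Knockout replicate 1 stood apart from the other 3, and it was also the library with the most keratin reads. Krt5 and Krt14 together were at 122 in knockout replicate 2, which had the lowest Arhgap36 value of the knockouts. Both keratins were at 0 in knockout replicates 3 and 4, and their part in the Arhgap36 values was not tested. The ratio of means was 19.0, and 11.3 without replicate 1 (26.4 ± 5.53 over 3 libraries). The genes around its known actions did not pass the test. Of 14 tested, 8 had a positive fold change, where 54.6% of all tested genes were positive and 1.64% passed. The 14 include Prkaca, the catalytic subunit of protein kinase A (log2 fold change 0.07, limma adjusted p = 0.759). Prkar2b, the regulatory subunit most abundant here, was at -0.11 (0.750) and Gli1, a Hedgehog target, at -0.11 (0.813). Gli2, a Hedgehog transcription factor, had the smallest adjusted p among the 14. Its lowest knockout value (123) was above its highest control value (118), with a log2 fold change of 0.58 and a limma adjusted p of 0.186.

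Uts2r was at 5.86, 1.47, 1.96 and 5.67 scaled reads in the controls, from 3 to 12 recovered reads, and at 31.6, 36.5, 30.1 and 23.0 in the knockouts. The knockouts were alike, with a coefficient of variation of 18.4%, and the ratio of means was 8.1. The level in the knockouts was low per length, 1.26 ± 0.233 RPKM. Its peptide ligands were near 0 in every library. Uts2, which encodes urotensin II, reached at most 1.47 scaled reads and Uts2b at most 0.98. Gnaq and Gna11, the G protein subunits through which the receptor signals, had log2 fold changes of -0.16 and -0.12 (limma adjusted p = 0.447 and 0.531).

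Necab1 was at 30.3, 30.0, 23.99 and 23.2 scaled reads in the controls and 68.2, 53.3, 65.5 and 65.4 in the knockouts, a ratio of means of 2.35. Both groups were tight, with coefficients of variation of 14.1% and 10.5%. The counts cannot be assigned to Necab1 alone. The antisense gene Gm11837 shares 410 of the 4922 exonic bases, and strand is not given in the sources used here. Gm11837 had its own row, at 51.9 ± 8.59 in controls and 118 ± 14.7 in knockouts (log2 fold change 1.18, SE 0.16, limma adjusted p = 0.00743). In all 8 libraries it stood at 1.76 to 2.04 times Necab1, so the values of the pair differed between groups by nearly the same factor. Its call was lost in 2 of 22 alternatives, without knockout replicates 1 and 2 together (0.0554) and with knockout replicate 3 as the only knockout library (0.143). Which of the strands gave the reads was not tested. The relative Necab3 was at 54.9 ± 4.75 and 63.9 ± 4.43 (log2 fold change 0.22, adjusted p = 0.518), and Necab2 was at 5.88 or below in every library.

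Uchl1 had the smallest ratio of the 7. Its scaled reads were 83.5, 92.4, 73.9 and 75.8 in the controls and 158, 132, 111 and 139 in the knockouts. The lowest knockout was 1.2 times the highest control, and the ratio of means was 1.66. It shares 244 of 1177 exonic bases with the antisense gene Uchl1os, for which no row was matched, so reads there cannot be told apart. Per length, it was second to Vat1l in both groups, at 4.85 ± 0.487 and 8.13 ± 1.26 RPKM, and in controls the pair did not differ beyond their spread. The other ubiquitin hydrolases of its family did not pass, where 1.64% of all tested genes did, so this is no result about them. Uchl3 was at 0.12, Uchl4 at 0.25, Uchl5 at -0.12 and Bap1 at -0.03 on the log2 fold change scale (limma adjusted p 0.522 to 0.865). Ubb, a ubiquitin gene, was at 5006 ± 279.9 and 6627 ± 1445 (0.38, adjusted p = 0.271).

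Inpp5j was at 45.4, 31.0, 34.3 and 40.7 scaled reads in the controls and 101, 90.3, 101 and 124 in the knockouts, a ratio of means of 2.75. The lowest knockout was 1.99 times the highest control, and knockout replicate 4 was the highest. Of the 13 other phosphatases of phosphoinositides or inositol phosphates tested, 7 had a positive fold change, and none passed (limma adjusted p 0.475 and above). Of all tested genes, 54.6% were positive and 1.64% passed. Inpp5k, which has the same activity as Inpp5j, had a log2 fold change of 0.08 (limma adjusted p = 0.742).

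**Figure D2:**
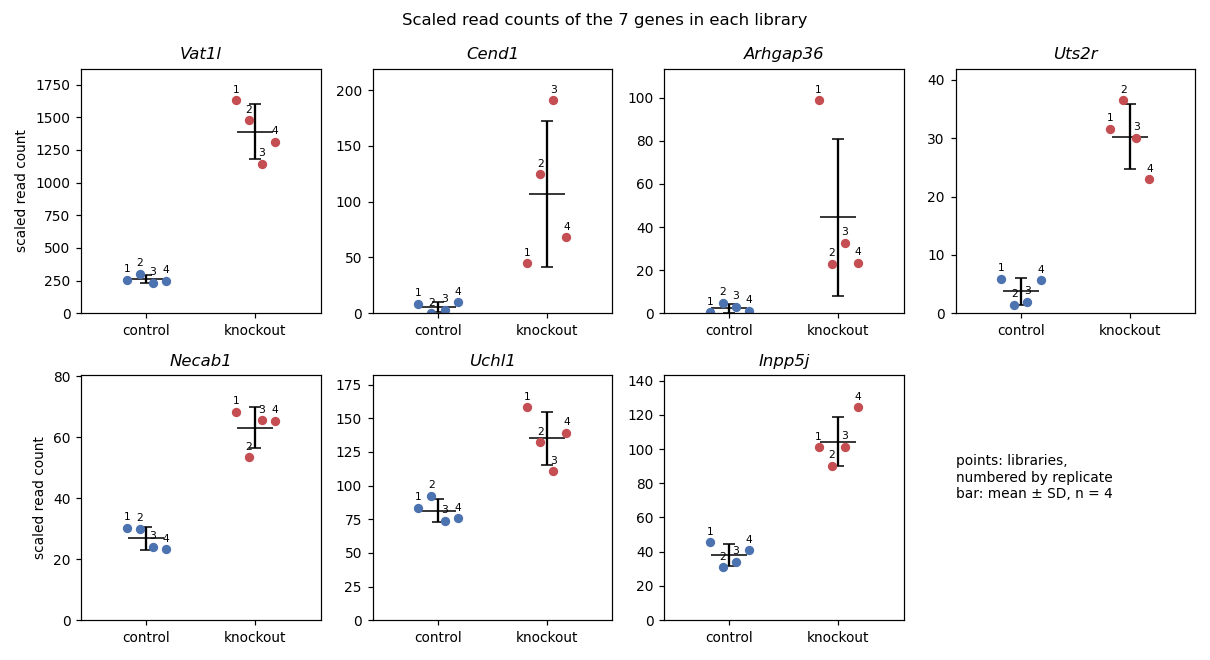
Scaled read counts (y axis, from 0, a scale of its own for each gene) of the 7 genes in 4 control and 4 knockout libraries. Points are libraries numbered by replicate, and bars give the mean and SD. Every knockout point lies above every control point, which is how the genes were chosen, and Arhgap36 in knockout replicate 1 (98.7) stands apart from the other knockouts.

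All 7 members passed the filter on low values, a scaled read count of at least 10 in at least 4 libraries. For Cend1, Arhgap36 and Uts2r no control reached that value, so these 3 passed only through the knockouts. Of the 14591 genes tested, 5.06% had every knockout library above every control. The member closest to the limit was Uchl1. On the other side of the limit, the neuronal genes Vamp2 and Stmn4 had a lowest knockout value of 0.989 and 0.987 times the highest control. In order of level per length, the knockouts ran from Vat1l over Uchl1, Cend1 (4.5), Inpp5j (2.19), Uts2r (1.26) and Arhgap36 (1.04) to Necab1 (0.907 RPKM). In the controls Inpp5j (0.787) and Necab1 (0.383) came before Cend1 (0.22), Uts2r (0.154) and Arhgap36. Within the knockouts, the mean ± SD of Arhgap36 overlapped those of Inpp5j, Uts2r and Necab1, while Uts2r and Necab1 did not overlap. Cend1 overlapped Uchl1, Inpp5j and Arhgap36. In the controls each neighbour in the order from Necab1 to Arhgap36 overlapped with the next.

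The members did not share an order among the knockout libraries. Replicate 1 was the highest for Vat1l, Arhgap36, Necab1 and Uchl1, replicate 2 for Uts2r, replicate 3 for Cend1 and replicate 4 for Inpp5j. Replicate 1 was also the lowest for Cend1. Knockout replicate 3 had muscle markers within the control range and no keratin reads. That the members lay above the controls there follows from how they were chosen. Against the control mean, its values were 4.39 times for Vat1l, 36.2 for Cend1, 13.97 for Arhgap36, 8.04 for Uts2r, 2.44 for Necab1, 1.36 for Uchl1 and 2.68 for Inpp5j. The mean log2(scaled reads + 1) of the 7 was 6.76 in that library and 6.55 to 6.85 in the other knockouts, against 4.09 to 4.5 in the controls.

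**Figure D3:**
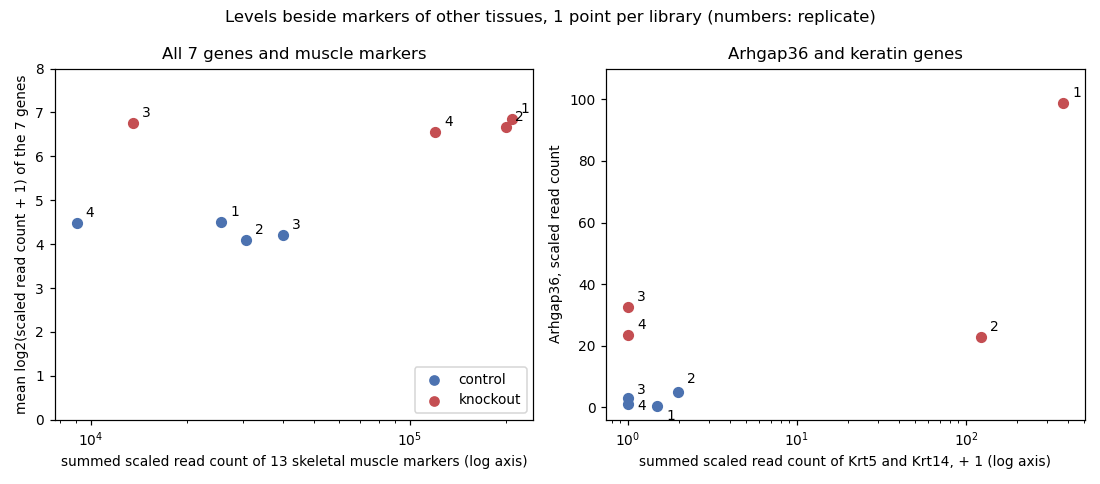
Left, the mean log2(scaled read count + 1) of the 7 genes against the summed scaled reads of 13 skeletal muscle markers (log axis). Right, Arhgap36 against the sum of Krt5 and Krt14 plus 1 (log axis), 1 point per library with its replicate number. Knockout replicate 3 lies at 13529 for muscle markers and 0 for the keratins and has a mean of 6.76 for the 7 genes.

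Markers of neurons differed widely in level, and the examples here were chosen after their values were seen. Snap25, a synaptic fusion protein, was at 0 to 3.09 scaled reads in all 8 libraries, Nefl, a neurofilament subunit, at 0 to 3.27 and Chga, a secretory granule protein, at 0.49 to 3.43. Rbfox3, the nuclear antigen NeuN, was at 4.36 to 15.2, Tubb3, the neuronal tubulin, at 3.43 to 13.7 and Elavl4, an RNA-binding protein, at 0.98 to 16.5. Others were higher and did not pass: Eno2, the neuronal enolase, was at 166 to 225, Stmn2, a regulator of microtubules, at 97.6 to 164 and Gap43, a growth cone protein, at 27.3 to 75.7 (limma adjusted p 0.486 to 0.758). Of 10 sympathetic neuron markers, 3 were tested and none passed, where 1.64% of all tested genes did, so this is no result about them. Dbh, which makes noradrenaline, was at 0 in every knockout and at most 1.03 in a control, and Th, the tyrosine hydroxylase, was at most 5.45. Slc18a2, the vesicular monoamine transporter, was the highest of the list at 60.2 to 92.9 (log2 fold change 0.32, limma adjusted p = 0.413). The summed level of the list was 96.4 to 118 in controls and 107 to 133 in knockouts. Markers of Schwann cells, the glia of peripheral nerves, were present and overlapped between groups, with sums of 7415 to 10793 and 7833 to 9004 over 17 genes. The list's median log2 fold change was -0.06, and 1 of its 17 tested genes passed, or 5.88%, where 1.64% of all tested genes did. It was Pllp, a membrane protein of myelin, which rose from 142 ± 36.8 to 267 ± 13.5 (log2 fold change 0.94, limma adjusted p = 0.0326). That call was lost in 7 of 22 alternatives, with adjusted p up to 0.270.

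Among 65 other neuronal and neuroendocrine genes, 64 had a row and 36 were tested. Of these 36, 4 were higher in the knockout and none lower, which is 11.1% called (limma, Benjamini-Hochberg adjusted p under 0.05). Of all tested genes 1.64% were called, 1.28% higher and 0.356% lower. The list's median log2 fold change was 0.22 against 0.02 over all genes. Of the 36, 29 were positive, where 54.6% of all tested genes were. All gene lists here were drawn up with earlier results of these data known, so their shares are no independent support. Celf5, a neuronal RNA-binding protein, was at 14.6, 3.93, 6.37 and 4.64 scaled reads in the controls and 41.5, 29.9, 61.0 and 65.9 in the knockouts. The groups did not overlap (log2 fold change 2.68, SE 0.40, limma adjusted p = 0.0105). Of the Celf5 controls only the highest, at 14.6, reached the value set by the filter on low values. Celf5 was therefore tested only because every knockout reached it, and its low control values limit the size of its fold change. Mapt, the microtubule-associated protein tau, rose from 109.9 ± 14.9 to 221 ± 42.0 (0.99, SE 0.16, adjusted p = 0.0158). Map2, its counterpart in dendrites, rose from 24.2 ± 2.12 to 49.1 ± 4.2 (0.99, SE 0.16, adjusted p = 0.0174). Syp, the synaptic vesicle protein synaptophysin, rose from 226 ± 29.5 to 377 ± 71.7 (0.73, SE 0.15, adjusted p = 0.0432), and its call was lost in 15 of 22 alternatives, with adjusted p up to 0.174. Camk2b, a calcium-dependent kinase, was at 1.04 and did not pass (adjusted p = 0.0592). The most abundant members of the list did not pass either: Nnat was at 8160.5 ± 4561 and 11546 ± 2189 (0.72, adjusted p = 0.492) and Thy1 at 2112 ± 442 and 2484 ± 205 (0.26, 0.482).

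The count of 4 changed when single libraries were left out. It was 1 without knockout replicate 2 and 0 without knockout replicate 4. In the latter fit the log2 fold changes were 2.53 for Celf5 (limma adjusted p = 0.0525), 0.97 for Mapt, 0.95 for Map2 and 0.73 for Syp. The count over all genes also fell, from 239 to 101 without knockout replicate 2 and to 87 without knockout replicate 4. The count in the neuronal list was also 1 without control replicates 1 and 2 together and without knockout replicates 1 and 2 together. Muscle markers were high in knockout replicates 1, 2 and 4, and their part in the result was not tested. In knockout replicate 3 the scaled reads were 61.0 for Celf5, 176 for Mapt, 44.2 for Map2 and 479.9 for Syp. The 28 genes with a row that were not tested include 21 that were under 10 scaled reads in every library.

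None of 7 genes of REST and its corepressors passed (limma), where 1.64% of all tested genes did, so this is no result about them. Of the 7, 6 had a negative fold change and 1 a positive one, where 54.6% of all tested genes were positive. An unadjusted p under 0.05 (limma) was found for 1 of the 7. Rest was at -0.30 (adjusted p = 0.669), Rcor1, which encodes CoREST, at -0.25 (0.694) and Hdac2, a histone deacetylase of the complex, at -0.01 (0.955). Of 50 genes known as REST targets 49 had a row, but 32 of these were not tested, 27 being under 10 scaled reads in every library. Of the 17 tested, 1 passed (5.88%, against 1.64% of all tested genes), which was Syp, and it is among 20 genes with a row that this list shares with the neuronal list. Its median was 0.03, close to the 0.02 over all genes. L1cam, a neural adhesion molecule, was at 192 ± 29.9 and 193 ± 26.5 (0.01, adjusted p = 0.979).

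**Figure D4:**
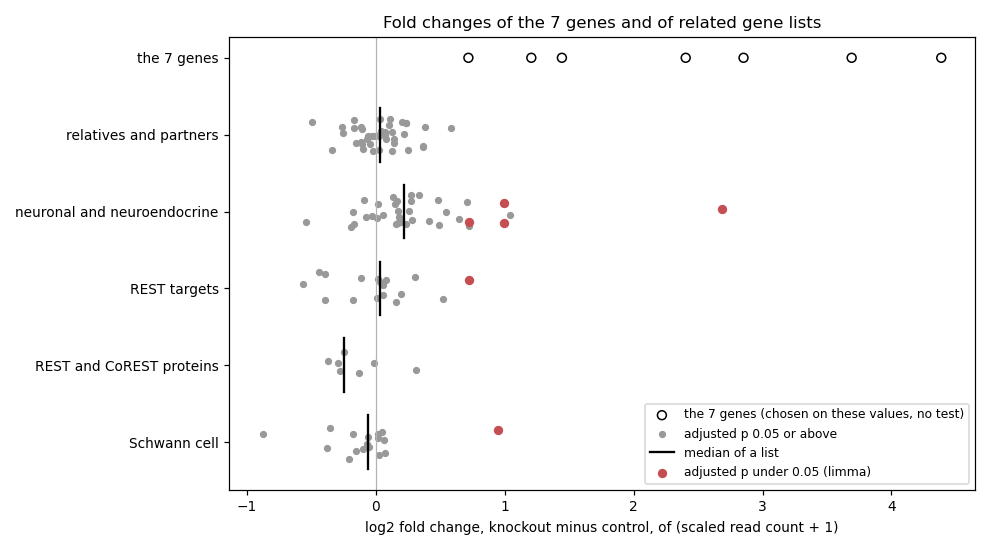
Log2 fold changes (x axis, knockout minus control, of the scaled read count plus 1) of the 7 genes as open circles and of the tested genes of 5 lists as points, with each list's median as a line. Red points passed at an adjusted p under 0.05 (limma). The 7 genes run from 0.72 to 4.39, the medians of the lists from -0.25 to 0.22, and no relative or partner of the 7 genes is red.

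Over all members, 47 relatives and partners had a row and 42 were tested. None passed (limma), and none did by edgeR, DESeq2 or any other alternative, while 5 had an unadjusted p under 0.05. With 1.64% of all tested genes called, a count of 0 among 42 is near the background and is no result about the relatives. Their median log2 fold change was 0.03, and 24 of the 42 were positive, against 54.6% of all tested genes. The nearest tested gene on each side of a member, by start coordinate and among genes that RefSeq lists as protein-coding, was examined too. This set was chosen by position after the values were known. Of these 14 neighbours 2 passed and 6 were positive, with a median of -0.03, where 1.64% of all tested genes passed and 54.6% were positive. Those that passed were Gm11837, the antisense gene described with Necab1, and Selenom, a selenoprotein gene 9183 bases from Inpp5j. Gm11837 shares exonic bases with Necab1, so its call may rest on reads used to choose Necab1. The count of 2 is therefore not independent of the members. Selenom rose from 442 ± 38.3 to 715 ± 97.7 (0.69, SE 0.11, limma adjusted p = 0.0158), and 4 of 22 alternatives lost the call, among them those leaving out control replicate 1 (0.0519) and knockout replicate 4 (0.0691). Slc25a22, only 187 bases from Cend1, was at 2388 ± 253 and 1920.1 ± 125 (-0.31, adjusted p = 0.156). Wwox and Nudt7 beside Vat1l were at -0.21 and -0.47 (adjusted p = 0.394 and 0.164).

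The genes most like the members in pattern were ranked by Pearson's r over the 8 libraries with the mean log2(scaled reads + 1) of the 7. The highest 8 had r from 0.982 to 0.994, and since the members were chosen for a difference between the groups, this ranking favours any gene with a like difference. C1qtnf4, a secreted protein of the C1q and TNF family, was at 17.98 ± 1.03 in controls and 92.2 ± 16.8 in knockouts (r = 0.994). Lynx1, a modulator of nicotinic acetylcholine receptors, was at 612 ± 55.4 and 1154 ± 62.2 (r = 0.991), and Syt11, of the synaptotagmin family, at 296 ± 5.18 and 479 ± 22.4 (r = 0.987). The others were Elovl4, a fatty acid elongase (0.989), the transcript NM_025629 (0.988), the mitochondrial carrier Slc25a21 (0.987), Cox6b2, a subunit of cytochrome c oxidase (0.984), and Got2, the mitochondrial aspartate aminotransferase (0.982).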

How the data were processed

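RNA from inguinal fat was sequenced in 8 libraries. Per the submitters' processing notes, alignment to mm10 used TopHat version 2 and counting used HOMER. The sources used here give neither the HOMER version nor its annotation, strandedness or scaling. The authors deposited a signal, read counts multiplied by 1 factor per library. Values under 1000 were whole multiples of a step of 0.442 to 0.545 (tolerance 0.02) in 100% of cases, which gave 25671837 to 32442724 recovered reads. Steps may be single ends of read pairs, so counting error can be larger than recovered reads imply.

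There were 23373 rows per file, and the only row lacking an accession was at 0. RefSeq (GRCm38.p6) gave symbols for 22527 accessions and GENCODE M21 for 124 more. Another 721, holding 1.64% of reads, kept their accession, and for 12 symbols with a second row the higher row was kept. Promoter sequences are from RefSeq, and exon overlaps from GENCODE M21.

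The test was limma (3.58.1, trended prior variance), fitted to log2(value + 1) with a genotype term alone, on 14591 genes with at least 10 in at least 4 libraries, with Benjamini-Hochberg adjustment. Ratios and levels per length were computed from deposited values and recovered reads. edgeR (4.0.16) on recovered reads called 218 genes against 239. DESeq2 (1.42.0), limma-voom, other scalings, pseudocounts (0.5 and 5), filters, halved reads and left-out libraries were the alternatives, and left-out fits kept the same 14591 genes. R was 4.3.3 and Python 3.11.15. On simulated reads of this comparison (14591 genes, 200 changed) 34% of genes changed 1.5-fold, 72% at 2-fold, 98% at 4-fold and 100% at 8-fold were recovered, with 12 false of 164 calls. Those reads were drawn separately for each gene, with as many genes raised as lowered. They lack the shared muscle and keratin differences among the knockouts, so these rates may not hold for the real libraries.

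The members and lists were chosen with earlier results of these data known. Named genes were the members, Kdm1a, list genes that passed, the most abundant that did not, the most abundant relative of each member, and the 8 most alike. Scn3b and Myh2 were not analysed here, and some named genes are not reported here. Further relatives, Camk2b, the neuron markers near 0 and the neighbours were named after their values were seen. All 12 pairs of libraries within a group differed by more than counting error allows (chi-square over its degrees of freedom 25.6 to 136).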

Additional observations from a re-analysis of the deposited data

Results flagged for a closer look

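Among 52 groups of 4 libraries examined, 1 value lay far from the rest of its group, where chance gives about 1 in 20. The groups were those of the members, Kdm1a, the list genes and neighbours that passed except Cidec, and the summed gene lists. Other named genes were not examined in this way. Arhgap36 was at 98.71 scaled reads in knockout replicate 1, while the other 3 knockouts were at 22.9 to 32.7. The same library had the highest Krt5 (237) and Krt14 (137), whose part in the value was not tested. In knockout replicate 2 the keratins together were at 122 and Arhgap36 was at 22.9. In knockout replicates 3 and 4 both keratins were at 0 and Arhgap36 was at 32.7 and 23.5.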

How the results depend on the processing

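The sign of the 7 members' fold changes is set by how they were chosen, so only their size was compared. Of 153 combinations of member and alternative, 149 moved by less than the SD between replicates. The other 4 were Vat1l and Uchl1 with knockout replicate 3 as the only knockout library (2.14 and 0.44) and Arhgap36 and Uts2r with a pseudocount of 5 (2.55 and 2.04). With a mean of at least 20 as the filter, Uts2r was not tested. Fits that change only the filter cannot move a member's fold change, so their agreement was set in advance. Cend1, with a control at 0, ran from 3.38 to 5.43 without moving by more than its SD on the log2 scale.

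Of all genes, 239 passed (187 higher, 52 lower). The count was 776 with DESeq2 (492 higher, 284 lower, so 63.4% higher against 78.2%), and 87 to 449 when 1 library was left out: 135 without control replicate 1, 138 without control replicate 4, 101 without knockout replicate 2, 449 without knockout replicate 3 and 87 without knockout replicate 4. Leaving out control replicates 1 and 2 together gave 97. Added after the data were seen, it was 85 without knockout replicates 1 and 2 together and 19 with knockout replicate 3 alone, a lone sample assumed to vary like the controls.

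The count of neuronal and neuroendocrine genes was 4, with 0 to 4 when 1 library was left out. It was 1 without control replicates 1 and 2 together, 1 without knockout replicates 1 and 2 together and 0 with knockout replicate 3 alone. The REST target count of 1 (Syp) was 0 with edgeR on recovered or halved reads, limma-voom, TMM or RLE scaling and no filter. It was 0 or 1 with 1 library left out, and 0 in the other 3 fits that leave out more. For relatives and partners it was 0 in all 22 alternatives. Map2 and Mapt each lost their call in 5 alternatives and Celf5 in 2, with the sign kept. The cause was not tested.

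No paired analysis was possible because the sample numbers in the labels are not shared between the groups. Control replicates 1 and 2 are numbered 518 and 517, and all other libraries of both groups from 356 to 361. What the numbers stand for is not stated, and whether they mark separate sets of samples was not tested. Scaling moved the median of all genes by less than 0.1 on the log2 scale. Recovered reads of 0 to 19 in controls limit the ratios of Cend1, Arhgap36 and Uts2r.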
